A study of Arabidopsis thaliana with 16 samples.

Results

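The light response of Arabidopsis thaliana rosettes that carry a knockout of SAP3 was examined in 4 of the 16 arrays of the series. The protein made from SAP3 is a stress-associated zinc finger protein with an A20 and an AN1 domain. The 4 arrays are replicates 1 and 2 of sap3 plants in high light (HL) and replicates 1 and 3 of sap3 plants in low light (LL). They were chosen by the signal of HSP90.1, a heat-inducible cytosolic chaperone, which had to lie above a log2 signal of 6 in HL and below it in LL. Of the 6 arrays labelled sap3, LL replicate 2 and HL replicate 3 failed this rule and were left out. Because the choice used a light-responsive gene, differences between HL and LL in the 4 arrays are given as a description, with no test.

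Whole rosettes were sampled, and each sap3 array holds RNA of 15 plants. All plants had 3 weeks of growth in light of 80 to 100 µmol (photons per square metre per second), followed by 10 days in 8 µmol. The HL plants were then moved to 800 µmol, for 60 min by the sample titles and for 10 min by the treatment protocol, while the LL plants stayed at 8 µmol. The sets used beside them were wild-type (WT, Col-0) single-replicate arrays under the same light levels, pools of 45 plants labelled cml49 (a knockout of CML49, a calmodulin-like protein), and pools of 45 plants labelled WT. The sources used here name neither the mutant allele nor the number of independent sap3 lines. Values are RMA log2 signals, on which a difference of 1 is a ratio of 2.

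Leaves moved to light beyond what photosynthesis can use pass excess energy to oxygen, and hydrogen peroxide and other plastid signals then act on nuclear genes. Heat shock factors, the bZIP factor HY5, and the sugar-sensing kinases SnRK1 and TOR are among the known relays: SnRK1 keeps a starvation programme active when sugar is scarce, and TOR promotes translation when sugar is available. Stress-associated proteins of the A20/AN1 family are known from stress tolerance in several plants, and some act as ubiquitin ligases.

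The target gene was measured before anything else. SAP3, at locus AT2G27580 on chromosome 2 between positions 11776411 and 11777529, had log2 signals of 5.06 and 5.28 in the sap3 HL arrays, against 4.21 and 4.05 in the sap3 LL arrays. The HL values lay above both LL values, and the difference of 1.04 ranged from 0.85 to 1.23 over the 4 pairings of an HL with an LL array. In WT, SAP3 had 6.14 and 6.48 in HL replicates 1 and 3, against 4.85, 4.84 and 5.14 in LL. The sap3 arrays thus lay below the WT arrays of the same light level in both HL and LL. The left-out arrays stood apart: sap3 LL replicate 2 had the highest SAP3 signal of the 16 arrays, 6.98, and sap3 HL replicate 3 had the lowest, 3.74. With all 6 sap3 arrays as labelled, the SAP3 difference turned to -0.39. Because the sources used here give no insertion site, the signal left in sap3 arrays cannot be read as a degree of transcript loss. They give no genome build for the coordinates either.

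HSP90.1 (AT5G52640, chromosome 5, 21352399 to 21355361) had 10.21 and 10.07 in the sap3 HL arrays, against 3.86 and 3.19 in the sap3 LL arrays. These are the values that admitted the 4 arrays. The 2 arrays outside the rule had 3.17 (HL replicate 3) and 11.09 (LL replicate 2), so no sap3 array was near the bound of 6. WT HL replicate 2, at 3.62, also went against its label, and it was left out wherever a WT light difference is given. Whether any of these 3 arrays were exchanged with others was not tested, and values over all 6 sap3 arrays hold only for the labels as given.

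**Figure D1:**
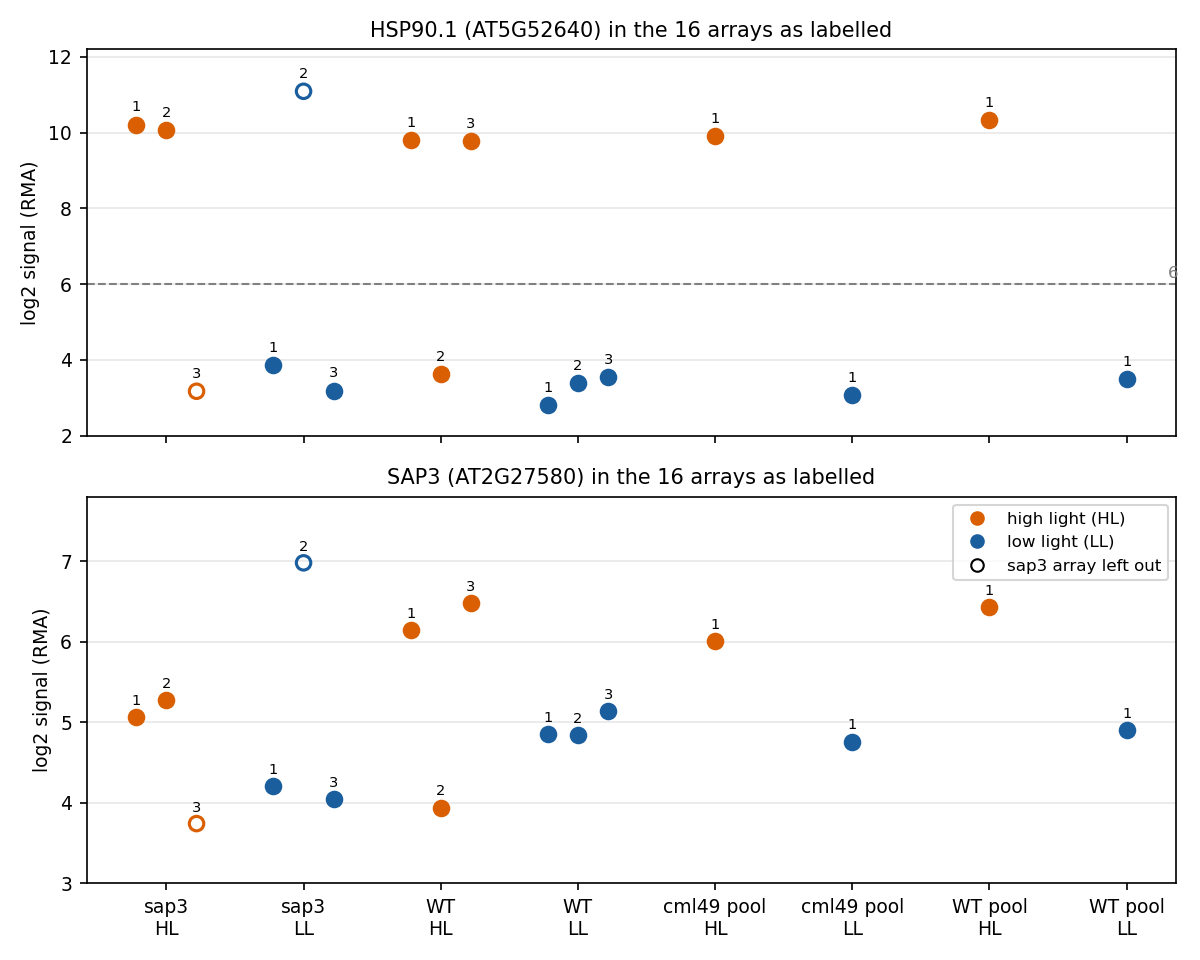
Log2 signal of HSP90.1 (top) and SAP3 (bottom) in each of the 16 arrays, by genotype and light as labelled; each point is 1 array with its replicate number, and open circles are the left-out sap3 arrays. For HSP90.1 the sap3 HL arrays 1 and 2 are at 10.21 and 10.07 and the sap3 LL arrays 1 and 3 at 3.86 and 3.19, on either side of the dashed line at 6, and for SAP3 the left-out LL replicate 2 is the highest point at 6.98.

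A probe set was counted as higher or lower in HL where the mean of the 2 HL arrays differed from that of the 2 LL arrays by at least 1 and the arrays did not overlap. In sap3, 772 of 28403 probe sets (2.72%) were higher and 561 (1.98%) lower, and with 1 probe set per locus the counts were 758 (2.79%) and 547 (2.01%) of 27207 loci. These shares follow from arrays chosen by light, so nothing is read from them. The counts of list members given below stand beside 4.8% of all loci counted in either direction. Most transcripts moved little: 82.6% of the probe sets lay within 0.5 of equality, and the median difference was -0.025. A difference of at least 2 was seen for 175 probe sets in the upward and 86 in the downward direction. In whole rosettes, fewer cells of a type and less RNA per cell cannot be told apart.

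The left-out arrays opposed their labels across these probe sets as well as for HSP90.1. Sap3 LL replicate 2 lay nearer to the HL mean for 702 (90.9%) of the 772 higher and 521 (92.9%) of the 561 lower probe sets. Sap3 HL replicate 3 lay nearer to the LL mean for 750 (97.2%) and 536 (95.5%) of them. With all 6 sap3 arrays as labelled, 5 probe sets (0.0176%) were higher and 2 (0.00704%) lower by the same count.

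Chaperone genes headed the list. HSP70-4 (AT3G12580, chromosome 3, 3991261 to 3993792), a cytosolic HSP70, had 12.31 and 12.24 in HL, against 6.18 and 5.65 in LL. HSP17.8 (AT1G07400), a class I small heat shock protein, had 9.45 and 8.50 in HL, against 3.04 and 2.23 in LL. Each HL value lay far above both LL values, with pairings from 6.06 to 6.66 for HSP70-4 and from 5.46 to 7.22 for HSP17.8. ROF2 (AT5G48570), an immunophilin that binds HSP90, had 10.64 and 10.22 in HL, against 4.67 and 4.26 in LL. HSFA2 (AT2G26150, chromosome 2, 11135682 to 11137396), a heat shock factor that is itself heat-inducible, had 7.74 and 6.72 in HL, against 2.06 and 1.71 in LL, a difference of 5.34. HSP101 (AT1G74310), a disaggregase, had 9.26 and 8.65 in HL, against 4.50 and 4.25 in LL. The left-out arrays carried the opposite pattern for each of these 5 genes; for HSP70-4, sap3 HL replicate 3 had 5.74 and sap3 LL replicate 2 had 12.68.

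**Figure D2:**
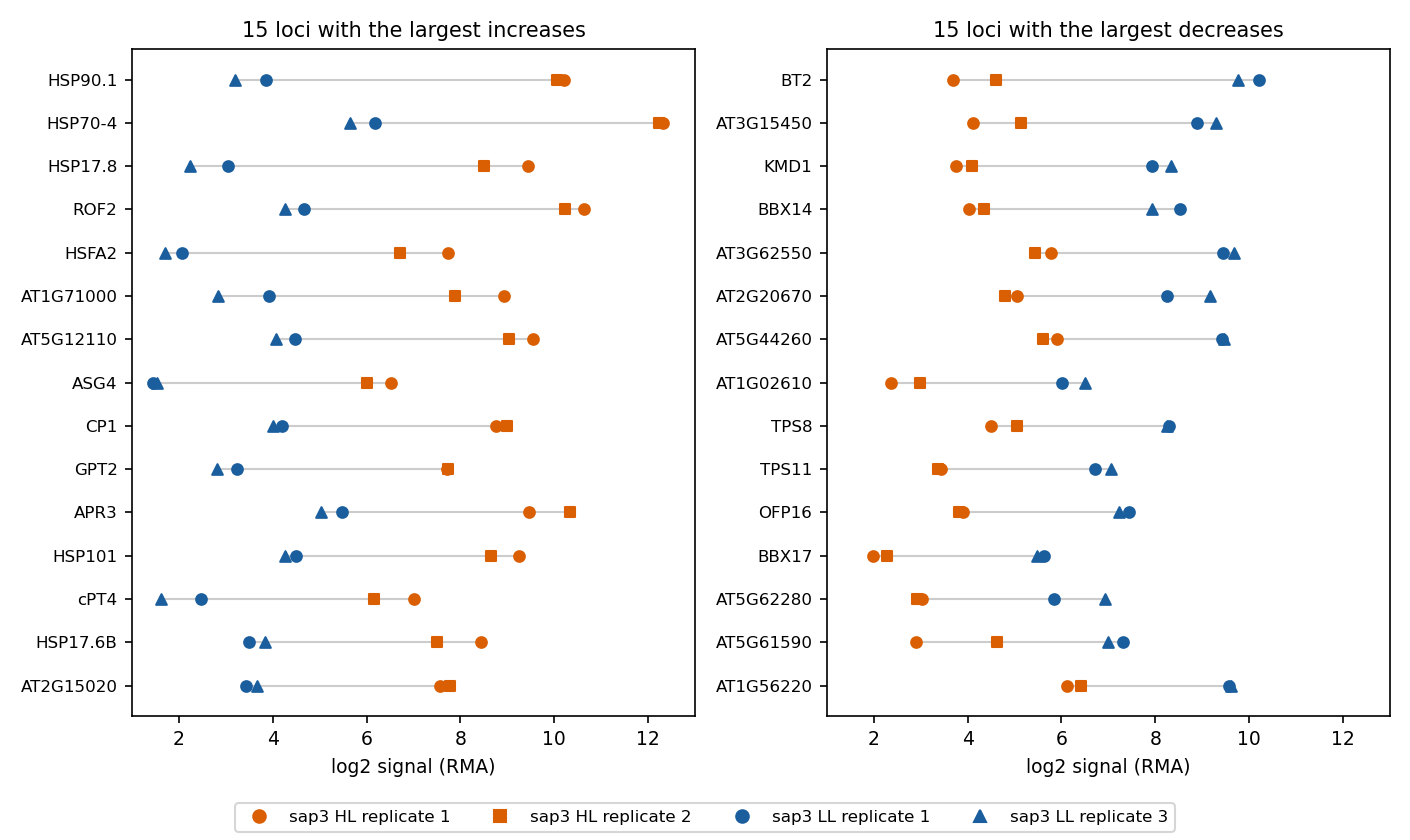
Log2 signal of the 15 loci with the largest increases (left) and the 15 with the largest decreases (right) in the 4 sap3 arrays; each point is 1 array, orange for HL and blue for LL, and the grey line spans the 4 values. The 30 loci were taken from those counted as higher or lower, a count that itself requires HL and LL points not to overlap. The differences run from 6.62 for HSP90.1 to 4.12 for AT2G15020 and from -5.84 for BT2 to -3.33 for AT1G56220.

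Of 19 cytosolic chaperones and co-chaperones, 15 were higher in HL and 0 lower, with a median difference of 2.05 where all loci had -0.03. That list includes HSP90.1, which chose the arrays; without it, 14 of 18 were higher and 0 lower, with a median of 2.02. Members with smaller differences included the co-chaperones BAG6 (2.05) and ROF1 (1.98). Among the 4 that were not counted, HSP70-1, an abundant constitutive form, had 11.68 and 11.58 in HL, against 10.84 and 10.71 in LL, and the organising protein HOP1 differed by 0.02. HSP90.2, HSP90.3 and HSP90.4 are close copies of one another, so their probe sets may share signal. HSP90.2 and HSP90.3 differed by 3.005 and 3.06, while HSP90.4 differed by 0.29 and was not counted. Of 15 small heat shock proteins, 10 were higher and 0 lower, with a median of 2.11. HSP17.6B reached 4.3, while plastid HSP21 differed by 0.10 and HSP18.1 by -0.18. Over the 6 arrays as labelled the list medians were 0.54 and 0.22, and HSP23.6 (AT4G25200; 1.84 in the 4 arrays) and HSP15.7 (AT5G37670; 1.25) turned to -0.30 and -0.20.

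A smaller share of the heat stress transcription factors had this pattern. Of 22 factors, MBF1C included, 5 were higher and 0 lower, and the median was 0.15. That is 22.7% counted, beside 4.8% of all loci. Besides HSFA2 these were the co-activator MBF1C (8.35 and 7.50 in HL, against 4.70 and 4.93 in LL), HSFB1 (1.74), HSFB2B (1.33) and HSFA7A (1.33). The class A1 factors, which act as primary regulators of the heat response, moved by 0.23 or less either way apart from HSFA1B (-0.28).

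Of 21 genes induced in darkness or sugar shortage, 18 were lower in HL and 0 higher, with a median of -2.55. BT2 (AT3G48360, chromosome 3, 17908192 to 17910525), a BTB and TAZ domain protein whose transcript is repressed by sugar, had 3.68 and 4.61 in HL, against 10.22 and 9.76 in LL, the largest decrease of all loci (-5.84). KMD1 (AT1G80440), a kelch-repeat F-box protein, had 3.74 and 4.09 in HL, against 7.92 and 8.34 in LL. Both genes lay lower in each HL array than in either LL array, which the count itself requires. The class II trehalose-phosphate synthase genes TPS8 (-3.50), TPS11 (-3.49), TPS9 (-2.93) and TPS10 (-2.68) were lower together, whereas TPS5 of the same class differed by 0.86. AKINBETA1, a subunit of SnRK1, differed by -2.57, and the amino acid catabolism genes BCAT2 and MCCA by -1.74 and -1.66. ASN1 (asparagine synthetase), a classical marker of the dark state, had 7.79 and 8.55 in HL, against 9.35 and 9.98 in LL. The glucosidase gene DIN2 stayed low, at 2.82 and 3.25 in HL, against 3.35 and 3.17 in LL, with overlapping arrays. Over the 6 arrays as labelled the median of this list was -0.86.

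Of 14 genes of plastid translocators and starch metabolism, 6 were higher, 8 were not counted and 0 were lower (median 0.84). GPT2 (AT1G61800, chromosome 1, 22824440 to 22826774), a plastid glucose-6-phosphate translocator, had 7.72 and 7.74 in HL, against 3.24 and 2.80 in LL. GBSS1, which makes amylose, had 9.60 and 9.85 in HL, against 5.24 and 6.01 in LL, and the beta-amylase gene BAM3 differed by 2.46. The major triose phosphate translocator gene TPT was high throughout and differed by -0.23, and GPT1, the paralog of GPT2, differed by -0.54.

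In light signalling, HY5 (AT5G11260, chromosome 5, 3593380 to 3594992) had 6.29 and 6.83 in HL, against 4.24 and 4.05 in LL, and its homolog HYH had 5.40 and 5.33 in HL, against 2.4 and 2.66 in LL. Both were thus higher in each HL array, which the count itself requires. Of the 20 genes of HY5, photoreceptors and COP1 partners, 8 were higher and 2 lower (median 0.59). Among photoreceptors PHYB was higher by 2.06, whereas CRY1 and CRY2 differed by -1.31 and -1.30. SPA3, SPA4 and SPA1, partners of the ubiquitin ligase COP1, differed by 1.76, 1.36 and 1.07, and COP1 itself by 0.67.

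B-box transcription factors, several of which bind HY5 or COP1, were found in both directions. Of 17, 6 were higher and 4 lower, with a median of 0.29. BBX31 had 6.21 and 5.88 in HL, against 2.17 and 2.51 in LL, and BBX32 had 5.98 and 5.63 in HL, against 1.92 and 2.32 in LL. BBX14 had 4.02 and 4.34 in HL, against 8.53 and 7.92 in LL, and BBX17 had 1.98 and 2.27 in HL, against 5.62 and 5.48 in LL. None of these 4 genes overlapped between HL and LL, which the count itself requires. Among 14 genes of the PIF factors and shade markers, 4 were higher and 3 lower. The factors PIF1 (-1.94) and PIF4 (-1.62), which promote growth in darkness and shade, were lower, and PIL1 (2.38) and the auxin synthesis gene YUC9 (2.33) were higher.

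Of 24 circadian clock and REVEILLE genes, 7 were higher, 17 were not counted and 0 were lower (median 0.30). In the WT arrays the same count gave 7 higher and 4 lower (median 0.16). CCA1, a MYB factor of the morning loop, had 8.53 and 8.55 in HL, against 4.85 and 5.66 in LL. PRR9, a pseudo-response regulator, had 9.41 and 9.64 in HL, against 5.26 and 6.52 in LL. ASG4, also called RVE3, had 6.52 and 6.0 in HL, against 1.44 and 1.52 in LL. The close homolog of CCA1, LHY, had 4.29 and 4.36 in HL, against 3.83 and 4.14 in LL, and was not counted.

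The LL arrays differed from each other in several clock genes, which were picked after their values were seen. The evening gene TOC1 had 9.56 in sap3 LL replicate 1 and 8.73 in replicate 3, and ELF4 had 6.11 and 5.01. In the 3 WT LL arrays TOC1 lay between 9.51 and 9.61 and ELF4 between 5.85 and 6.24. CCA1 and PRR9 were higher in sap3 LL replicate 3 than in replicate 1, and 4.44 to 4.79 and 4.80 to 5.37 in the WT LL arrays. The left-out array labelled sap3 HL replicate 3 had 8.73 for TOC1, 4.45 for ELF4, 5.89 for CCA1 and 6.53 for PRR9. For these 4 genes it thus lay nearer to sap3 LL replicate 3 than to replicate 1.

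Photoprotection genes moved less than chaperone genes. Of 20 such genes on the array, 3 were higher and 0 lower (median 0.34). BCH2, a carotene hydroxylase of xanthophyll synthesis, had 7.21 and 6.73 in HL, against 3.04 and 3.99 in LL, followed by BCH1 (2.12) and the thylakoid protease gene FTSH8 (1.00). The early light-induced protein genes, textbook markers of high light, stayed near the low end of the scale. ELIP1 had 3.47 and 3.16 in HL, against 2.61 and 3.03 in LL, and ELIP2 had 2.27 and 2.31 in HL, against 2.29 and 2.12 in LL. PSBS, needed for rapid energy quenching, differed by 0.79, and the violaxanthin de-epoxidase gene VDE by -0.56. Of 20 light-harvesting antenna genes, 0 were higher and 1 lower (median -0.35), 5.0% counted beside 4.8% of all loci. That gene was LHCB1.2 (-1.20), whose probe set the annotation marks as cross-hybridising. Of 19 Calvin-Benson cycle genes, RBCS1B (1.22) was the one counted as higher, and 0 were lower (median 0.11). That share, 5.26%, was also near that of all loci.

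Antioxidant enzymes were split between a few large differences and many near 0. Of 23, 3 were higher and 0 lower (median 0.04). The cytosolic ascorbate peroxidase APX1 had 8.80 and 8.70 in HL, against 6.82 and 6.42 in LL. The peroxisomal catalase CAT2 had 9.10 and 9.27 in HL, against 6.78 and 7.28 in LL. Both were clear of the LL arrays, as the count requires, and so was the dehydroascorbate reductase gene DHAR2 (1.96). APX2, a known marker of high light, had 2.55 and 3.00 in HL, against 2.61 and 2.34 in LL, with overlapping arrays.

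Stress transcription factors were found in both directions. Of 22 zinc finger, WRKY and NAC factors, 7 were higher and 3 lower (median 0.29). ANAC032 had 8.34 and 8.45 in HL, against 5.19 and 4.23 in LL, and ANAC002 (ATAF1) and ANAC102 differed by 2.48 and 1.94. ANAC055 (-1.67), WRKY70 (-1.62) and MYB51 (-1.04) were lower. ZAT10 and ZAT12, zinc finger factors known from high light and hydrogen peroxide, differed by 0.72 and 0.94 and were not counted. ZAT12 had 3.95 in HL replicate 1 but 2.35 in HL replicate 2, against 2.24 and 2.19 in LL. Among 16 AP2/ERF factors, DREB2A (1.39) was higher and ERF2 (-1.80) and CBF2 (-1.13) were lower, with a median of -0.36.

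Jasmonate, abscisic acid and endoplasmic reticulum lists leaned upward. In the jasmonate list 8 of 23 were higher and 0 lower (median 0.77), led by the repressor gene JAZ9 (8.99 and 8.18 in HL, against 6.78 and 6.21 in LL) and the factor MYC2 (5.82 and 6.02 in HL, against 4.4 and 3.73 in LL). The jasmonate response genes VSP1 and VSP2 differed by 0.57 and 0.43. In the abscisic acid, cold and drought list 4 of 21 were higher and 1 lower (median 0.51). The galactinol synthase genes GOLS2 (2.94) and GOLS1 (2.78) led it, and the dehydrin gene LTI30 (-1.30) was lower. Of 12 genes of endoplasmic reticulum stress, 6 were higher and 0 lower (median 0.99), among them ERDJ3A (2.78), BIP1 (1.89) and CNX1 (1.67), which assist folding in the lumen. BIP1 and BIP2 are near-identical copies that may share signal.

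Flavonoid genes gave 3 of 22 higher and 1 lower (median 0.55). F3H had 6.83 and 6.47 in HL, against 3.90 and 4.46 in LL, and the entry enzyme gene CHS had 5.71 and 5.19 in HL, against 4.1 and 3.96 in LL. The late anthocyanin genes DFR (-0.18) and LDOX (-0.07) lay near 0. MYBL2, a repressor of anthocyanin synthesis, had 6.03 and 6.96 in HL, against 8.50 and 8.77 in LL.

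By its title the study concerns how plastid signals control cytosolic translation, and 3 of 11 genes of TOR, its S6 kinases and the elongation factor eEF1B were higher, with 0 lower and a median of 0.01. AT5G12110 (chromosome 5, 3914468 to 3915968), annotated as an elongation factor 1-beta subunit, had 9.54 and 9.03 in HL, against 4.47 and 4.06 in LL. Its relatives EEF1Balpha2, EEF1Bbeta1 and EEF1Bbeta2 differed by -0.14, -0.17 and -0.18. The kinase genes S6K1 (8.50 and 8.48 in HL, against 6.73 and 6.76 in LL) and S6K2 (1.35) were higher, and TOR differed by 0.04.

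Within the family of SAP3, 2 of 14 members were higher and 2 lower (median 0.19). SAP3 itself and SAP6 (8.46 and 8.56 in HL, against 7.72 and 7.21 in LL) were higher by 1.04 each. SAP1 (5.65 and 5.46 in HL, against 7.10 and 7.08 in LL) and SAP4 (3.33 and 3.38 in HL, against 4.56 and 4.56 in LL) were lower. None of these 4 overlapped between HL and LL, which the count itself requires.

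Among other loci at the top of the ranking, APR3 (9.46 and 10.33 in HL, against 5.47 and 5.03 in LL) encodes a reductase of sulfate assimilation. CP1, a calcium-binding protein gene, differed by 4.77, and cPT4, annotated as a dehydrodolichyl diphosphate synthase, by 4.54. At the bottom stood AT3G15450, annotated as an aluminium-induced protein (4.12 and 5.13 in HL, against 8.88 and 9.30 in LL), and OFP16 of the OVATE family (-3.47).

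Markers of other organs were measured as a check of the labelled tissue. The median of the antenna list was 9.77 and 9.24 in HL, against 10.15 and 10.53 in LL. Median signals of 9 root markers were 3.19 and 2.86 in HL, against 2.82 and 3.07 in LL, and those of 8 flower and seed markers 2.34 and 2.50 in HL, against 2.48 and 2.49 in LL. No member of the root or the flower and seed list was counted in either direction. PYK10, listed as a root marker, had 8.01 and 8.79 in HL, against 8.09 and 9.24 in LL, and SCR 7.06 and 6.90 in HL, against 6.37 and 6.43 in LL. Of 7 guard cell markers, the potassium channel gene KAT1 was higher (1.60), and the list median differed by 0.03.

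**Figure D3:**
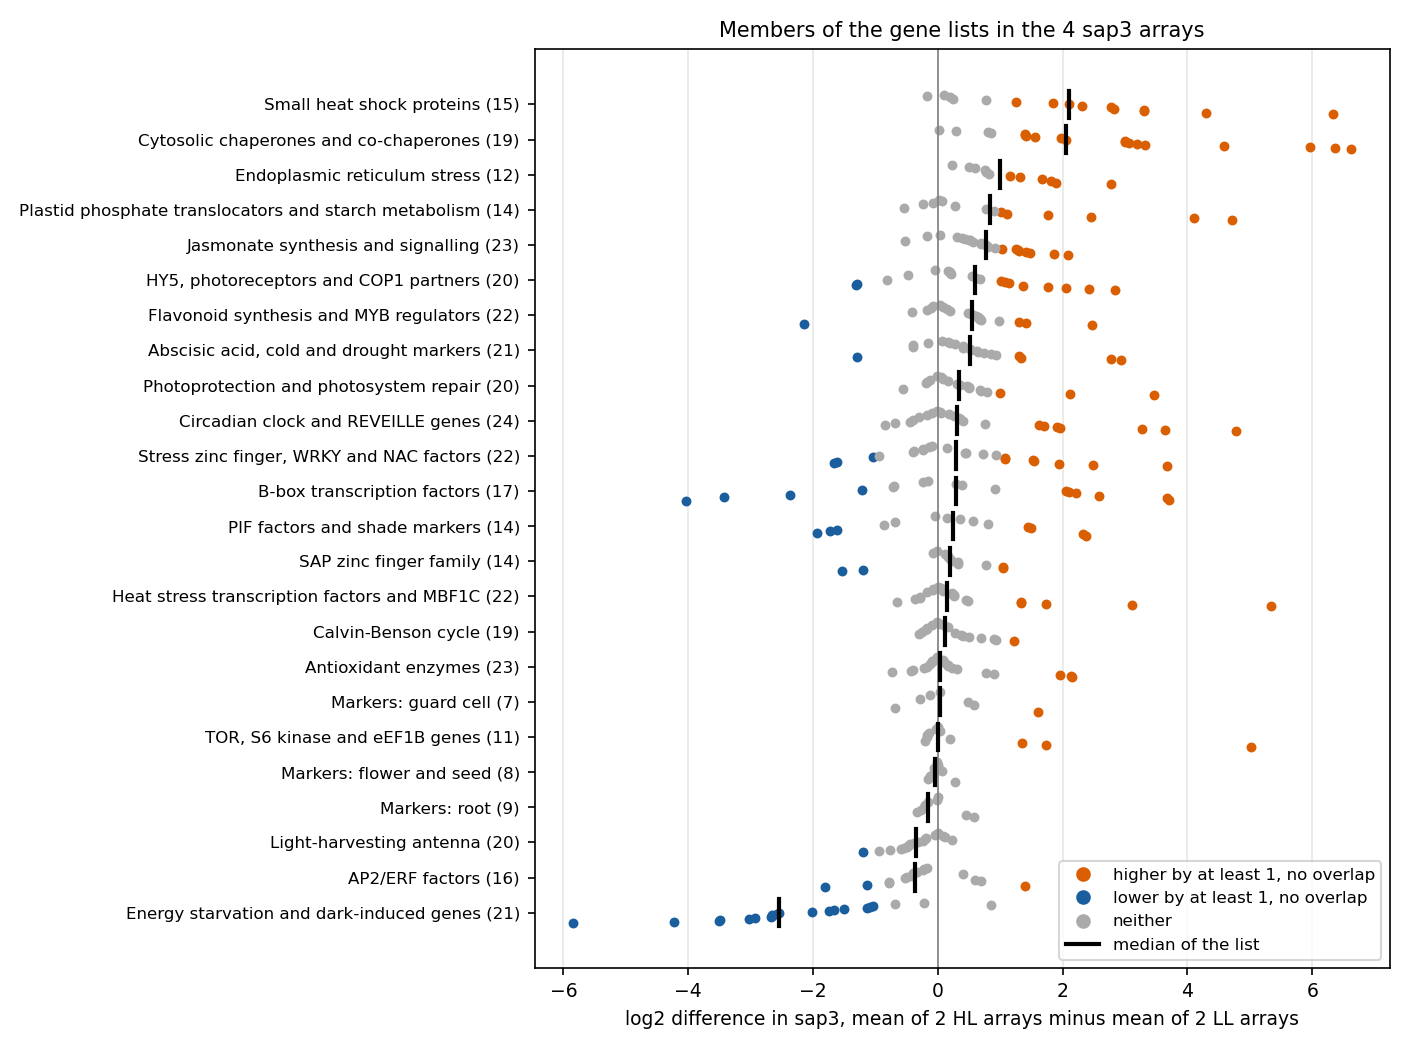
Log2 difference between HL and LL in the 4 sap3 arrays for each member of the 24 gene lists, with the number of loci on the array in brackets; orange and blue points were counted as higher and lower, and black bars are list medians. The medians run from 2.11 for small heat shock proteins and 2.05 for cytosolic chaperones to -2.55 for the starvation list, and the root, flower and seed markers lie near 0.

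The paired arrays of 1 light level were not equal. The 2 HL arrays differed by at least 1 in 448 probe sets (1.58%), and the 2 LL arrays in 498 (1.75%). HL replicate 1 lay further from LL than HL replicate 2 for 506 of the 758 higher loci and for 374 of the 547 lower loci. Small heat shock proteins were higher in HL replicate 1 in 14 of 15 cases, with a median gap of 0.73, and cytosolic chaperones in 18 of 19, with a median gap of 0.27. For HSP17.6C the values were 6.09 and 4.62, and for HSP23.6 they were 6.36 and 4.86. Starvation genes were lower in HL replicate 1 in 20 of 21 cases, with a median gap of -0.46. HY5 list genes were lower there in 17 of 20. The spread within HL therefore had the direction of the light difference for chaperones and starvation genes. The clock list, with 7 genes higher and 0 lower in HL, went the other way. Of its 24 genes, 18 were lower and 6 higher in HL replicate 1, with a median gap of -0.11. Over all 27207 loci, 13236 were higher and 13587 lower in HL replicate 1. The HY5 list held 8 genes higher and 2 lower in HL, so its count has no single light direction to be set against. These counts describe 1 pair of arrays and carry no test.

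**Figure D4:**
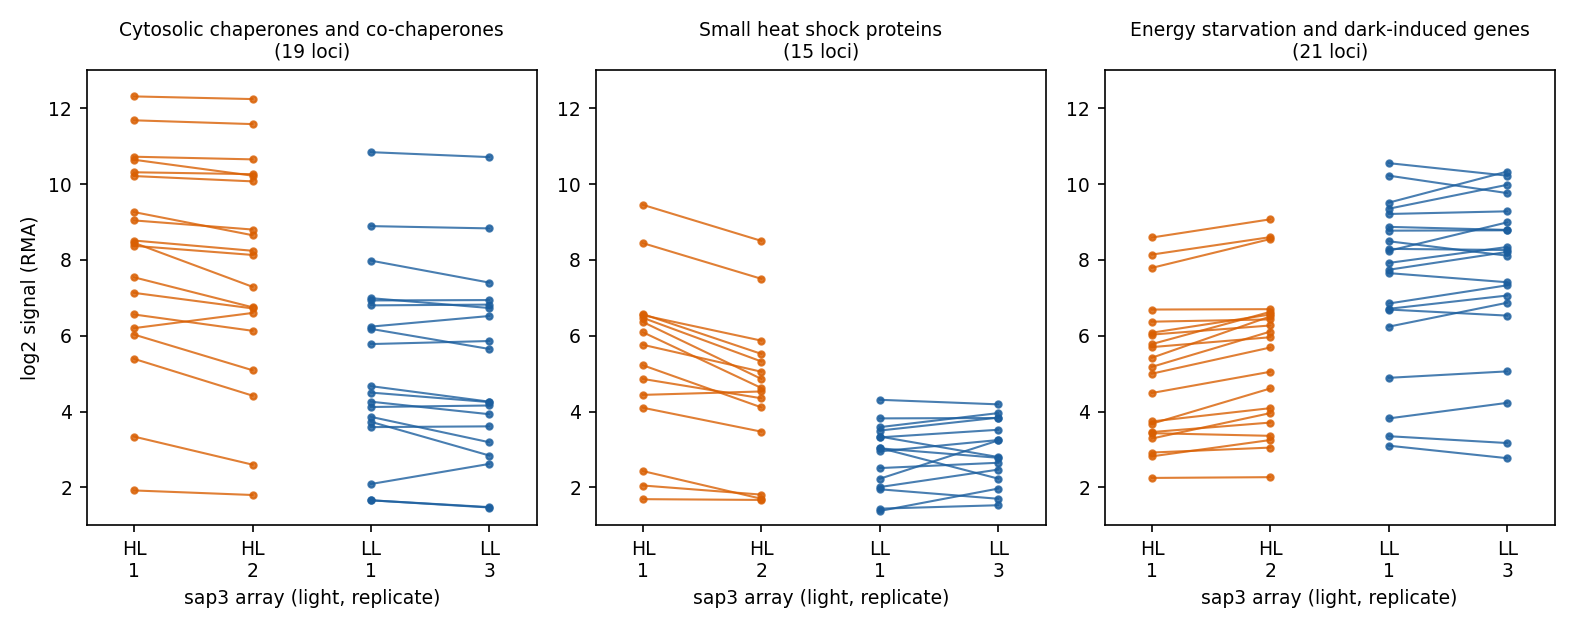
Log2 signal of each member of 3 gene lists in the 4 sap3 arrays, with a line joining the arrays of 1 light level. Chaperone lines slope down from HL replicate 1 to replicate 2 in 18 of 19 cases and small heat shock protein lines in 14 of 15, while starvation lines slope up in 20 of 21; the replicate numbers have no order.

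The tests that do not use the choice of arrays made no call. The light comparison used the 6 sap3 arrays as labelled, with a spread estimated from all 12 single-replicate arrays of sap3 and WT. These included WT HL replicate 2, which opposes its label. For that comparison, limma with Benjamini-Hochberg adjustment called 0 of 28403 probe sets (0.0%) at an adjusted p under 0.05. Before adjustment, 891 had a p under 0.05, and the smallest adjusted p was 0.354. HSP90.1 differed by 1.77 in that fit (adjusted p = 0.994). The smallest p belonged to AT5G58210 (log2 difference -0.87 ± 0.12, SE, limma adjusted p = 0.354). AT1G49920, annotated as a transposase, had a difference of 1.07 ± 0.17 in the same fit.

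The response of sap3 was then set against that of WT. By the same count 770 probe sets (2.71%) were higher and 513 (1.81%) lower in WT, from HL replicates 1 and 3 and all 3 LL arrays. Of the sap3 probe sets, 580 of the higher (75.1% of sap3, 75.3% of WT) and 380 of the lower (67.7% of sap3, 74.1% of WT) were shared. Median differences of the 772 higher probe sets were 1.45 in sap3 and 1.4 in WT, and those of the 561 lower ones were -1.31 in sap3 and -1.22 in WT. Across the 28403 probe sets the differences of sap3 and WT had a Pearson r of 0.80; probe sets are not independent, and both sets were chosen by HSP90.1.

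The pools had not been chosen by any gene. The CML49 signal was lower in the pools labelled WT (3.30 in HL and 2.77 in LL) than in those labelled cml49 (4.23 in HL and 3.97 in LL), so the pools are named by label. Whether these labels were exchanged was not tested, and which genotype each pool holds is not settled by these values. Differences of at least 1 numbered 981 upward (3.45%) and 825 downward (2.9%) in the cml49 pools, and 1247 (4.39%) and 953 (3.36%) in the WT pools. The difference between HL and LL had the sign seen in sap3 for 759 (98.3%) of the 772 higher and 545 (97.1%) of the 561 lower probe sets in the cml49 pools, and for 760 (98.4%) and 549 (97.9%) in the WT pools. Over all 28403 probe sets, 13576 differences were positive and 14517 negative in the cml49 pools. In the WT pools these numbers were 14020 and 14050. Both pool pairs were at least 1 higher for 649 probe sets (2.28%) and at least 1 lower for 479 (1.69%). Sap3 shared 487 of the higher (63.1% of sap3, 75.0% of the pools) and 339 of the lower (60.4% of sap3, 70.8% of the pools). For HSP70-4 the pools differed by 6.34 (cml49) and 6.78 (WT), beside 6.36 in sap3, and for BT2 by -5.28 and -6.41, beside -5.84 in sap3.

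**Figure D5:**
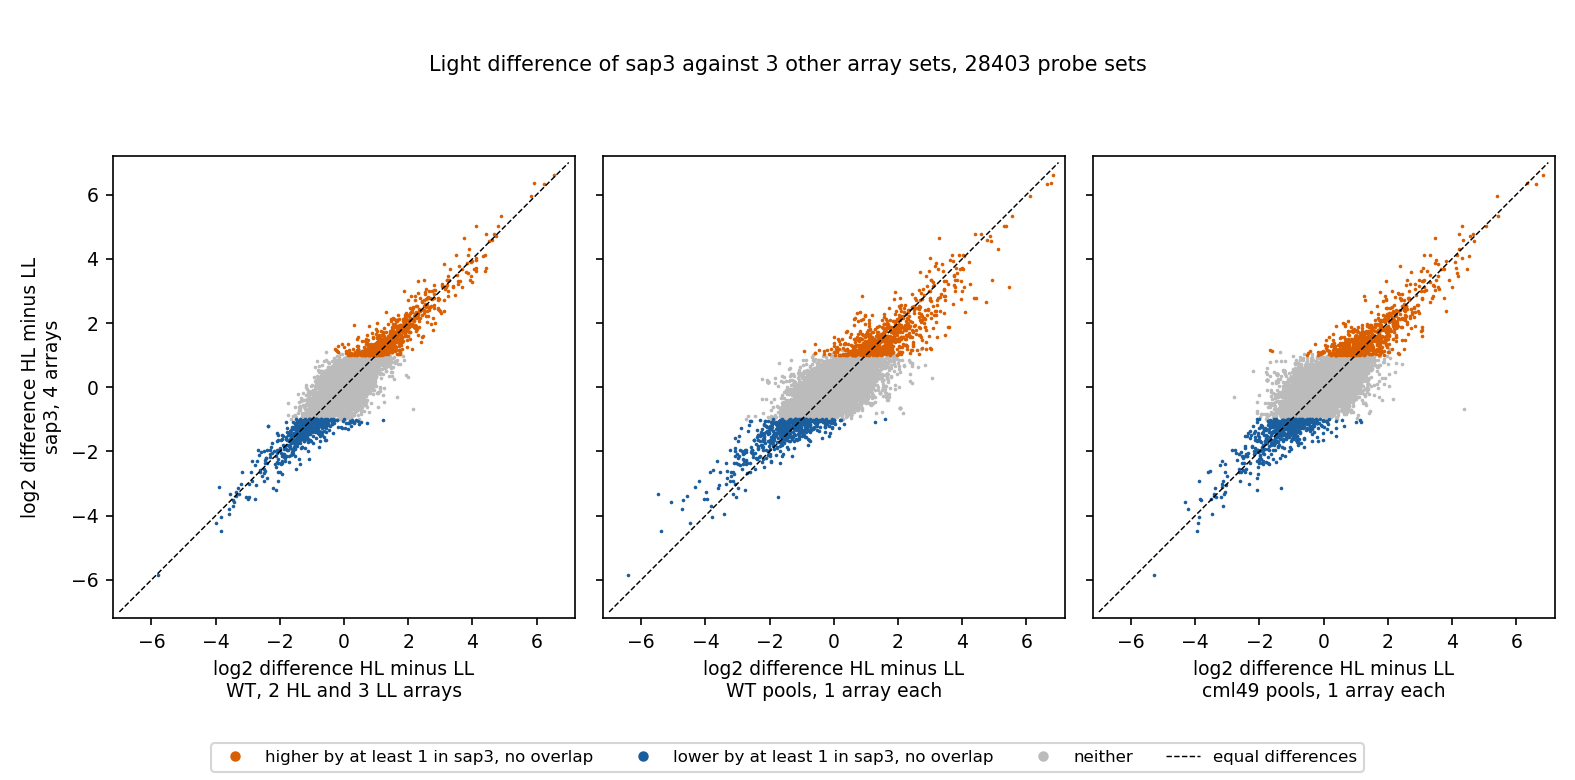
Log2 difference between HL and LL in sap3 (vertical axis) against that in WT (left), the WT pools (middle) and the cml49 pools (right), for 28403 probe sets; orange and blue points were counted as higher and lower in sap3, and the dashed line marks equal differences. The points follow the line, with Pearson r of 0.80, 0.73 and 0.69.

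The difference between the responses of sap3 and WT was tested as an interaction. On the 12 arrays as labelled, no probe set was called by limma (0 of 28403, 0.0%). Before adjustment, 744 had a p under 0.05, and the smallest adjusted p was 0.999. Without the 3 arrays that oppose their labels, it called 0 (0.0%), while 1192 had a p under 0.05 before adjustment and the smallest adjusted p was 0.30. The 9 arrays left were chosen by HSP90.1, a light-responsive gene. Every p-value and standard error on 9 arrays depends on that choice. A p that misses the threshold does not show that the responses were equal. The smallest p on 9 arrays was that of AT3G60950, whose difference was 0.31 in sap3 and 2.00 in WT (interaction -1.69 ± 0.21, SE, limma adjusted p = 0.30).

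Several stress regulators had a lower signed difference in sap3 than in WT without passing that test. HSFA3 had 4.48 and 3.97 in sap3 HL, against 3.92 and 4.01 in sap3 LL, and 4.91 and 5.19 in WT HL, against 3.74, 3.14 and 3.62 in WT LL. The sap3 arrays overlapped, while the WT arrays did not. The interaction on 9 arrays was -1.29 ± 0.32 (SE, limma adjusted p = 1.0), and -1.32 on 12 arrays (limma adjusted p = 0.999). ZAT10 differed by 0.72 in sap3 and 1.74 in WT, where sap3 LL, at 7.12 and 7.02, was above the WT LL arrays at 5.62, 5.24 and 6.01. WRKY53 differed by -0.10 in sap3 and 0.92 in WT, and CBF2 by -1.13 in sap3 and 0.31 in WT (limma adjusted p = 1.0 on 9 arrays for each). These 4 genes were chosen from the lists after their values were seen, and other members went the other way. ZAT12 differed by 0.94 in sap3 and 0.42 in WT, and DREB2A by 1.39 in sap3 and 1.22 in WT. The list medians were 0.15 in sap3 and 0.07 in WT for heat stress factors. They were 0.29 and 0.44 for zinc finger, WRKY and NAC factors, and -0.36 and -0.09 for AP2/ERF factors.

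Gaps between sap3 and WT were ranked among probe sets whose mean over the 9 arrays reached the median signal of 4.39. The 5 largest belonged to AT3G01345, the mitochondrial dicarboxylate carrier gene DIC2, the aminotransferase gene TAT3, the wall enzyme gene TCH4 and the transporter gene AT2G16660. AT3G01345 had 3.06 and 2.84 in sap3 HL, against 3.26 and 3.98 in sap3 LL, and 8.04 and 8.19 in WT HL, against 7.0, 3.90 and 7.01 in WT LL. It reached that bound through WT alone, since each of these sap3 values lay below 4.39. TAT3 had 5.76 and 5.96 in sap3 HL, against 4.38 and 3.46 in sap3 LL, and differed by 0.31 in WT. The interaction was -2.82 ± 1.13 for AT3G01345 and 1.63 ± 0.49 for TAT3 (SE, limma adjusted p = 1.0 for both on 9 arrays).

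In the authors' deposited table, the comparison of stressed with unstressed sap3 lists 1260 probe sets with an unadjusted p under 0.05, of which 6 had a log2 ratio of at least 1 and 3 of at most -1. The authors' deposited table gives HSP90.1 a log2 ratio of 3.03 and a p of 0.286. Its ratios match, to within 0.007, means over the 3 sap3 arrays and the pool labelled WT at each light level, 4 arrays per mean, and depart by up to 1.26 from means over the 3 sap3 arrays alone.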

How the data were processed

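Rosette RNA was hybridised to Affymetrix gene arrays. The authors deposited log2 signals made with RMA in Affymetrix Expression Console, per the submitters' processing notes; versions and genome build are not given in the sources used here. A workbook of the authors holds log2 ratios and unadjusted p-values of their own comparisons, per the file headers, and its 16 signal columns were not matched to labels and not used. Analysed were 28403 main probe sets, 27440 of them with 1 locus after 242 were dropped for a chromosome, 133 for a position and 19 for several loci. A locus with several probe sets is given by its brightest. The annotation, whose coordinates are used, marks 990 probe sets as cross-hybridising (22 of 1333 counted).

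Differences in the 4 arrays were counted without a test. limma 3.58.1 in R 4.3.3 (lmFit, eBayes, two-sided, Benjamini-Hochberg over all probe sets, adjusted p under 0.05) tested the 6 sap3 arrays as labelled and the interaction with WT. Its p-values rest on the spread between arrays of 15 plants each, estimated over the sap3 and WT arrays of a fit together. In the fits as labelled, that spread includes the gap between the arrays that oppose their labels and the others. The procedure was tested on simulated data. These held no array that opposes its label, so they do not show the power of the fits as labelled. Named genes were HSP90.1, SAP3, the 15 largest differences each way, up to 5 counted members of each of the 24 lists, the 5 smallest p of each test and the 5 largest gaps to WT; other named members were chosen after their values were seen. The arrays, lists and rules were chosen with earlier results of these data known. A planned count of promoter motifs was not made, since promoter sequences were not used here. Correlations between same-numbered arrays ran from -0.633 to 0.527. They were taken around group means that include the 3 arrays opposing their labels, so they cannot show whether the numbers pair the samples. The main fits used no pairing.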

Additional observations from a re-analysis of the deposited data

Results flagged for a closer look

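Only loci in the gene lists or picked by a ranking of differences or p-values were searched for opposite moves. The rankings included the gap to WT and the interaction p, so such moves were in part selected. Loci outside the search were not examined. For 4 of the loci searched, the kept sap3 arrays and the WT arrays moved in opposite directions by at least 0.5 between HL and LL. The light levels did not overlap in either set for these loci. The interaction was tested with limma on the 9 arrays kept by HSP90.1, and none passed (adjusted p = 1.0 for each). AT3G01345, a hypothetical protein gene, had an interaction of -2.82; its WT LL arrays ranged from 3.90 to 7.01. AT1G08440, an aluminium-activated malate transporter gene, had 1.63 and 1.94 in sap3 HL, against 1.99 and 2.83 in sap3 LL, and 2.44 and 3.09 in WT HL, against 1.96, 1.39 and 1.81 in WT LL (interaction -1.67). AT5G33355, a defensin-like gene on a cross-hybridising probe set, had 2.48 and 2.35 in sap3 HL, against 3.45 and 2.92 in sap3 LL, and 2.49 and 2.53 in WT HL, against 2.18, 1.81 and 1.22 in WT LL (interaction -1.54). AT3G16851, a hypothetical protein gene, had 2.97 and 3.03 in sap3 HL, against 2.11 and 2.52 in sap3 LL, and 2.38 and 2.48 in WT HL, against 3.07, 3.02 and 3.25 in WT LL (interaction 1.37). On all 12 arrays as labelled the interactions were -0.90, -1.65, -1.56 and 1.01 (limma adjusted p = 0.999 for each). AT1G08440, AT5G33355 and AT3G16851 lay below the median signal of 4.39 in all of these arrays. AT3G01345 lay below it in each kept sap3 array.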

How the results depend on the processing

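The limma test of the 6 sap3 arrays as labelled and that of the interaction with WT each called 0 probe sets with array weights, a robust or a mean-dependent prior, median centring, a new quantile normalisation, brighter probe sets, 1 probe set per locus and leaving out each array compared in turn. The first also called 0 when fitted on the sap3 arrays alone, and the interaction called 0 on the 9 arrays. All of these fits except the one on 9 arrays kept at least 1 array that opposes its label. With the replicate number as a block both tests also called 0, and whether the numbers pair the samples is not known. In the 4 arrays, a difference of at least 2 left 175 higher and 86 lower probe sets, and asking every HL value to be at least 1 from every LL value left 462 and 296. All 6 sap3 arrays as labelled gave 5 and 2. Leaving out 1 of the 4 arrays gave 743 to 1019 higher and 564 to 719 lower. Taking the mean difference alone, median centring, a new quantile normalisation, brighter probe sets and 1 probe set per locus gave 654 to 779 higher and 480 to 566 lower. Over all 6 arrays as labelled, SAP3 (-0.39), HSP23.6 (-0.30) and HSP15.7 (-0.20) changed sign; those arrays include the 2 that oppose their labels. With 2 arrays per light level, the number of arrays limits the precision. The count of chaperones without HSP90.1 was added after seeing the data.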
